A study of Mus musculus with 6 samples.

Results

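The genes described here encode the axon guidance cues of 4 systems and their receptors: semaphorins with plexins and neuropilins, ephrins with Eph receptors, Slits with Robo receptors, and netrins with Unc5 receptors. They were taken as the protein-coding rows of the deposited table whose symbols begin with the names of these families, which gave 69 of 23194 genes. Of the 69, 35 encode ligands and 32 encode receptors. The remaining 2, Unc50 and Unc5cl, share the letters Unc5 but are not netrin receptors. The families were first described in growing nerves, where a ligand on one cell or in the matrix repels or attracts the tip of an axon that carries its receptor. In the lung the same proteins act on endothelial cells, epithelium, smooth muscle and immune cells, in vessel patterning, branching of the airways, barrier function and the migration of leukocytes.

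The mice were adults of the inbred strain C57BL/6 with wild type genotype, and RNA of the left lung was sequenced. The 3 injured lungs had their left pulmonary artery tied for 4 h and were then reperfused for 24 h, and the 3 naive lungs were controls. The labels name no genetic change or drug in either group and no sham operation for the naive lungs, so the operation and the ischemia cannot be told apart. Nothing in the labels says how mice, operations and RNA preparations were divided beyond the 6 separate left lungs, so p-values cover the spread between these 6 lungs.

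Libraries held 20062818 to 23638078 gene counts in injured lungs and 18913487 to 34986276 in naive lungs. The tissue markers were present in all lungs. Summed over 6 alveolar type 2 markers, CPM ran from 27400 to 30100 in injured and from 27100 to 30100 in naive lungs, where CPM is the count scaled to a common library size with TMM factors. The sum of 8 neutrophil markers ran from 609 to 1360 CPM in injured and from 58.2 to 93.1 CPM in naive lungs, and 7 of the 8 were called higher. The sum of 8 monocyte and interstitial macrophage markers ran from 391 to 465 CPM in injured and from 230 to 260 CPM in naive lungs, with 7 of 8 called higher. The sum of 6 T cell markers ran from 19.8 to 23.9 CPM in injured and from 37.5 to 43.7 CPM in naive lungs, with 2 called lower. The sum of 6 endothelial markers ran from 3510 to 4150 CPM in injured and from 4260 to 4590 CPM in naive lungs. None of these endothelial markers was called. Pecam1, Cdh5, Kdr and Cldn5 were at log2 fold changes of -0.25, -0.23, -0.27 and -0.22, Tie1 at -0.0057 and Tek at 0.16. Only in Pecam1 and Cdh5 did the groups not overlap. The sum of 4 alveolar macrophage markers ran from 1320 to 1410 CPM in injured and from 728 to 1010 CPM in naive lungs, with Siglecf absent. Most of it was Chil3, at 1150 to 1270 CPM in injured lungs (log2 fold change 0.74, called). Marco was at 1.79, Ear2 at -0.13 and Fabp1 at -0.74, none of them called. The sum of platelet markers ran from 38.8 to 51.2 CPM in injured and from 15.4 to 37.6 CPM in naive lungs. Of these Pf4 was called (log2 fold change 1.69). Ppbp, Itga2b and Gp9, at 0.59, 0.38 and 0.42, were not called and overlapped between the groups. Capillary aerocyte markers summed to 673 to 740 CPM in injured and 807 to 864 CPM in naive lungs. None of these aerocyte markers was called. Apln, at a log2 fold change of -1.21, did not overlap between the groups. Tbx2, Car4 and Ednrb, at -0.26, -0.14 and -0.041, overlapped. Ciliated cell markers summed to 303 to 389 CPM in injured and 413 to 469 CPM in naive lungs. Of these ciliated markers only Tppp3 was called lower (log2 fold change -0.56). Foxj1, Dnah5 and Ccdc39, at 0.063, 0.083 and -0.15, were not called and overlapped between the groups. Sums of the other lists overlapped between the groups, with mesothelial markers at 56.6 CPM in injured replicate 3, 151 and 222 CPM in the other injured lungs and 218 to 292 CPM in naive lungs. None of the listed markers found in the table was at 0 in all lungs. On the second principal component of all genes, injured replicate 3 stood at -27.1 and the other injured lungs at 9.41 and 19.9, while naive replicates 1, 2 and 3 stood at 17.4, -2.09 and -17.6. In whole-lung RNA, fewer cells of a type and less RNA per cell cannot be told apart, and the part of these shifts in cell markers in the results on guidance genes was not tested.

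The comparison asked which guidance transcripts differed after ischemia and reperfusion. Sema6b, a membrane semaphorin that signals through A-type plexins, was the 1 guidance gene that passed the test, at 1.84 times its naive mean. Of the 69 genes, 62 had enough counts to be tested, and edgeR called 1 of them at an adjusted p under 0.05, higher in injured lungs. Over all 15486 genes tested, 3.11% were called, 2.16% as higher and 0.956% as lower. At an unadjusted p under 0.05 there were 4 guidance genes higher and 11 lower, against 9.06% higher and 7.66% lower of all genes. In 5 of the 62 every injured lung lay above every naive lung and in 11 every injured lung lay below, where all genes gave 12.3% above and 10.6% below. The median log2 fold change of the 62 was -0.073, beside -0.001 over all genes tested. These counts describe genes chosen by family name and carry no test of the families as a set.

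The 250 bases upstream of the annotated start are shown for the called gene and for 4 genes that missed the threshold and whose groups did not overlap, Sema4a and Sema7a with higher and Sema3e and Unc5c with lower means in injured lungs. They are RefSeq sequences of the build GRCm38.p6, written 5′ to 3′ on the strand of the gene, with each CG pair in capitals.
Sema6b, chr17:56140344-56140593, minus strand: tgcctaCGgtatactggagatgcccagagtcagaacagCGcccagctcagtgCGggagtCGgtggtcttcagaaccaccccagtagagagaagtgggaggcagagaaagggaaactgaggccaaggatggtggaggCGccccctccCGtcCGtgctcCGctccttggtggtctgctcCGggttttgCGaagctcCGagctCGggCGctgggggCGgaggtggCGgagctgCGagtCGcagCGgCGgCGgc
Sema4a, chr3:88461183-88461432, minus strand: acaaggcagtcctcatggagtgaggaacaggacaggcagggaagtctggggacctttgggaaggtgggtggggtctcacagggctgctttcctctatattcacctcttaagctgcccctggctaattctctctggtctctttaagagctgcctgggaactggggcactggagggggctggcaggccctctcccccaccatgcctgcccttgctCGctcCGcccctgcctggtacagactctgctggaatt
Sema7a, chr9:57939862-57940111, plus strand: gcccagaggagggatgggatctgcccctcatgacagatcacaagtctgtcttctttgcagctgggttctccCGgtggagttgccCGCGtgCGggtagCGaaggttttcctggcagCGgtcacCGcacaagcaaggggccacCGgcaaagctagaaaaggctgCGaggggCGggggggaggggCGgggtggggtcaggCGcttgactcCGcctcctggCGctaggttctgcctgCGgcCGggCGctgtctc
Sema3e, chr5:14025026-14025275, plus strand: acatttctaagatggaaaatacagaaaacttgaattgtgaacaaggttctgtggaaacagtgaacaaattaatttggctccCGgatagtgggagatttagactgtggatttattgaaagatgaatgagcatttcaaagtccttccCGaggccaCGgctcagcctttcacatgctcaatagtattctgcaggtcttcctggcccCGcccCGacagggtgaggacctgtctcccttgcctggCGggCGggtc
Unc5c, chr3:141465314-141465563, plus strand: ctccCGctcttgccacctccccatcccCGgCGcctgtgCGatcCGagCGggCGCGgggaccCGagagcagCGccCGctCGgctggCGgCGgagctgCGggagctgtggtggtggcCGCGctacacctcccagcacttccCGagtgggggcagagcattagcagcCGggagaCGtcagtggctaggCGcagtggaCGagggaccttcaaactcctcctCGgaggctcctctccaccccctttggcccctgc
The 5 upstream stretches differ in their CG pairs. Those of Sema6b, Sema7a and Unc5c held 20, 17 and 23 CG pairs, those of Sema4a and Sema3e held 2 and 7, and the median of 32851 annotated mouse starts was 6. Their GC content was 66.0% for Sema6b, 59.6% for Sema4a, 66.4% for Sema7a, 48.0% for Sema3e and 71.2% for Unc5c, beside a median of 52.4%. A search of both strands for 4 short motifs found none in these 5 stretches. The motifs were ACGTG, the core of the hypoxia response element, with a match in 16.6% of all starts, the AP-1 motif TGANTCA (6.75%), the TEAD motif GGAATG (12.6%) and a kappa B motif (4.11%), none of which contains another. The absence says only that these letters are not in these windows. Sema6b has 2 annotated starts and Sema4a has 4, of which the one at the start of the gene in the deposited table was used.

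**Figure D1:**
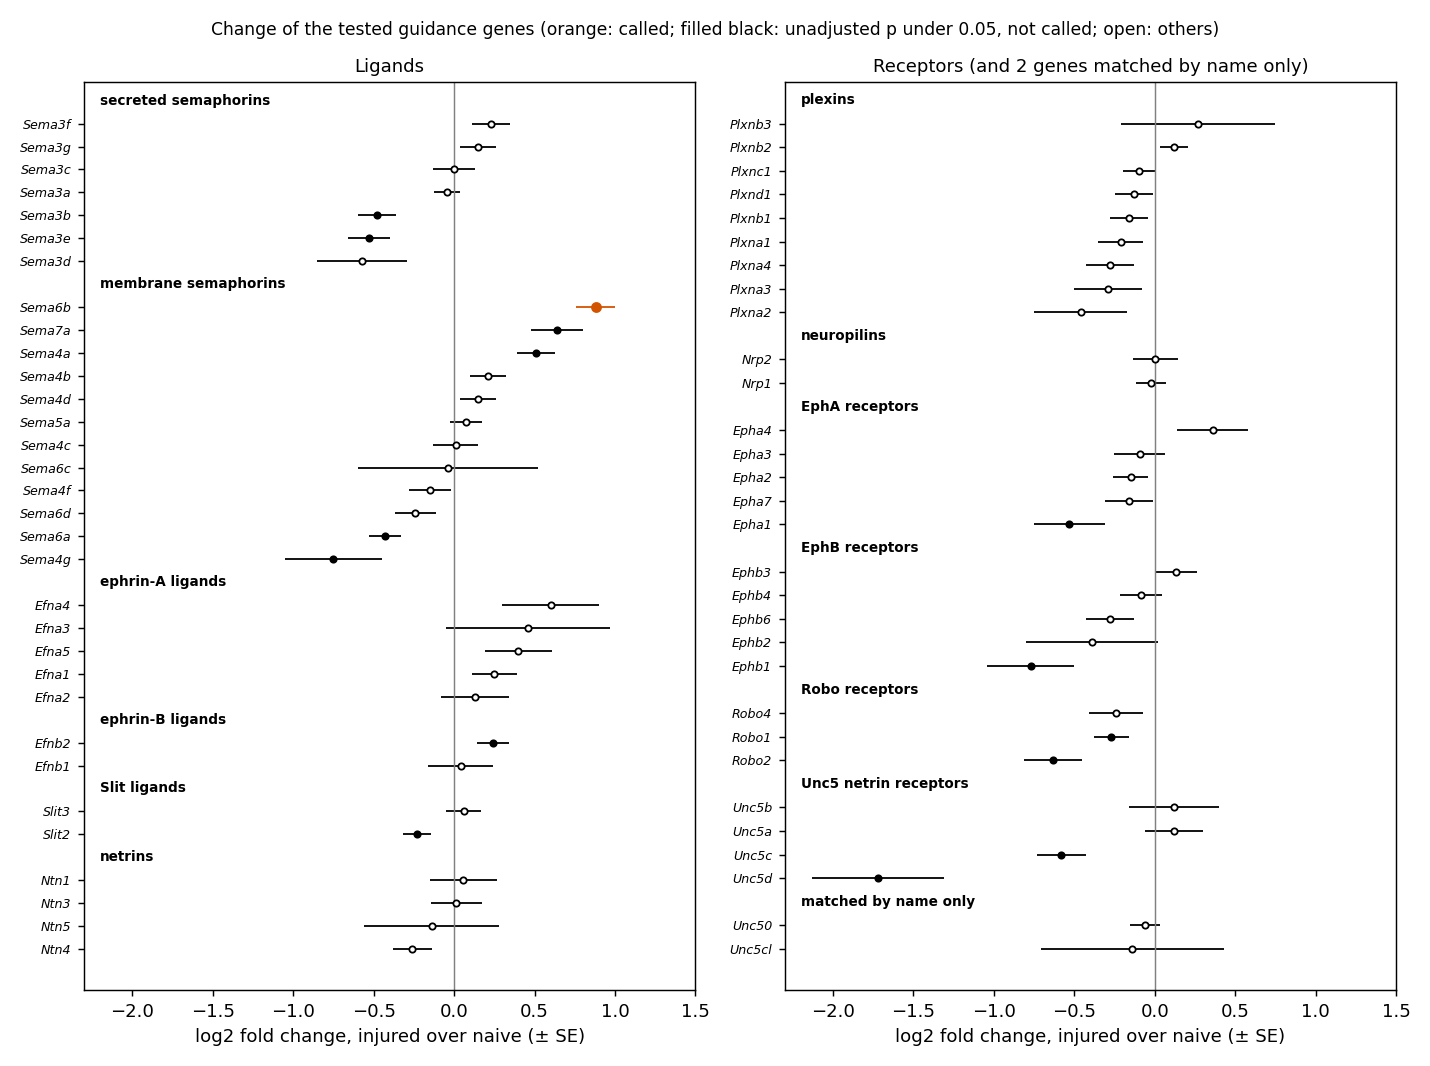
Log2 fold change of injured over naive lungs with its standard error (x axis) for the 62 tested guidance genes, grouped by role, with ligands on the left and receptors on the right. Sema6b (orange) is the 1 called gene at 0.88, filled black points have an unadjusted p under 0.05 without being called, and 21 of 28 receptors lie below 0.

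Membrane semaphorins held the called gene. Semaphorins of classes 4 to 7 are anchored in the membrane and reach their plexin on a neighbouring cell or after shedding. Sema6b (ENSMUSG00000001227, chromosome 17, 56123085 to 56140343 on the minus strand in the table's mm10 coordinates) had 32.1, 27.5 and 25.6 CPM in injured replicates 1 to 3, against 15.0, 14.3 and 16.9 CPM in naive replicates 1 to 3. Every injured lung lay above every naive lung. The log2 fold change was 0.88 ± 0.12 (SE; edgeR adjusted p = 0.00629). It stayed between 0.78 and 0.95 in 14 alternative fits, and each of them called it, with adjusted p from 4.41e-07 with DESeq2 to 0.0395 without naive replicate 2.

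Sema7a, a semaphorin held by a lipid anchor that binds plexin C1 and integrin beta 1, and Sema4a, which is found on dendritic cells and lymphocytes, had the next smallest p among guidance genes with higher means in injured lungs. Sema7a had 239, 230 and 301 CPM in injured lungs, against 160, 135 and 200 CPM in naive lungs. Sema4a had 72.0, 61.6 and 59.3 CPM in injured lungs, against 48.2, 48.6 and 38.5 CPM in naive lungs. Both genes were separated between the groups, with ratios of mean CPM of 1.56 for Sema7a and 1.43 for Sema4a, yet neither was called. The log2 fold change was 0.64 ± 0.16 for Sema7a (SE; edgeR adjusted p = 0.0736) and 0.51 ± 0.12 for Sema4a (SE; edgeR adjusted p = 0.0523). DESeq2 and the replicate block called both, edgeR without the low-count filter called Sema4a, and without naive replicate 3 Sema7a was called too, at a log2 fold change of 0.79. Without naive replicate 2 or injured replicate 3 Sema7a was at 0.51 and not called.

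On the other side lay Sema6a, the class 6 relative of Sema6b, which also signals through A-type plexins. Sema6a had 85.4, 90.6 and 74.2 CPM in injured lungs, against 105 to 123 CPM in naive lungs, so the groups did not overlap. Its log2 fold change of -0.43 ± 0.10 (SE) was not called (edgeR adjusted p = 0.0636). It was called by DESeq2 (adjusted p = 0.0098), and by edgeR with the replicate block (adjusted p = 0.0489) and without the low-count filter (adjusted p = 0.0255). Sema4g was at 1.79, 3.01 and 1.56 CPM in injured lungs, against 3.09, 3.76 and 3.86 CPM in naive lungs, a log2 fold change of -0.75 ± 0.30 (SE; edgeR adjusted p = 0.239). Its groups did not overlap either, at a level far below that of Sema6a. The other tested members of classes 4 to 7 had log2 fold changes between -0.24 for Sema6d and 0.21 for Sema4b and adjusted p above 0.4. Sema4d, the lymphocyte semaphorin that binds plexin B1, was among them at 0.15 ± 0.11 (SE). Summed per kilobase of gene length, the 13 membrane semaphorins stood at 169, 160 and 173 CPM per kb in injured lungs, against 138, 126 and 141 CPM per kb in naive lungs. Sema7a made up 46.5% ± 5.55 of that sum in injured and 36.9% ± 5.47 in naive lungs (SD, n = 3 each), and Sema6b 4.43% ± 0.542 and 2.96% ± 0.136 (SD, n = 3 each) in injured and naive lungs.

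**Figure D2:**
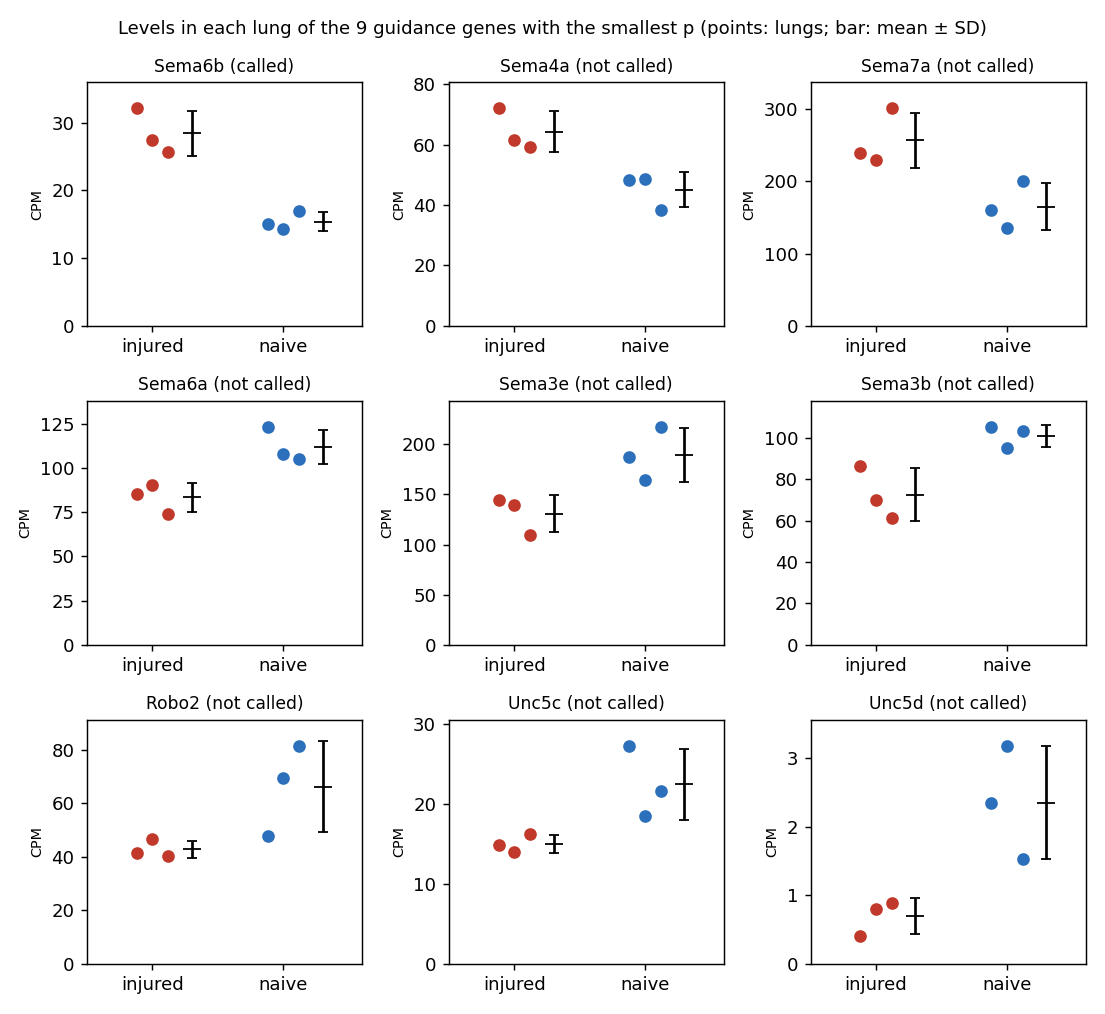
CPM (y axis) in each of 3 injured (red, left) and 3 naive (blue, right) lungs for the 9 guidance genes with the smallest p, with mean and SD beside the points. In all 9 panels the groups do not overlap, and the title of each panel says whether edgeR called the gene.

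The secreted semaphorins, class 3, act at a distance through neuropilins and A-type plexins, apart from Sema3e, which binds plexin D1 directly and repels endothelial cells. None of the 7 was called by limma-voom or by edgeR with all 6 lungs, the low-count filter and no replicate block. In that edgeR fit 2 were lower at an unadjusted p under 0.05, beside 7.66% of all genes, and DESeq2 called 2, beside 6.47%. Sema3e had 144, 139 and 110 CPM in injured lungs, against 187, 164 and 217 CPM in naive lungs. Sema3b had 86.4, 70.1 and 61.0 CPM in injured lungs, against 105, 94.9 and 103 CPM in naive lungs. For both genes all 3 injured lungs were below all 3 naive lungs. The log2 fold change was -0.53 ± 0.13 for Sema3e (SE; edgeR adjusted p = 0.0687) and -0.48 ± 0.12 for Sema3b (SE; edgeR adjusted p = 0.0784). DESeq2 called both, and so did edgeR without the low-count filter, at an adjusted p of 0.0166 for Sema3e and 0.0204 for Sema3b. The replicate block called Sema3b at an adjusted p of 0.0491 by edgeR, and without injured replicate 1 it was called at -0.62. Without injured replicate 3 Sema3b was at -0.37 and not called. Sema3d had 17.0, 22.6 and 10.3 CPM in injured lungs, against 26.5, 28.1 and 19.8 CPM in naive lungs. These groups overlapped, and at -0.57 ± 0.28 (SE; edgeR adjusted p = 0.373) only the replicate block called it among the fits run.

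The 3 most abundant secreted semaphorins did not follow that direction. Sema3c, which guides neural crest cells and vessels in the developing outflow tract, had 633, 812 and 870 CPM in injured lungs, against 728, 756 and 832 CPM in naive lungs. Sema3f, a ligand of neuropilin 2, had 386, 369 and 312 CPM in injured lungs, against 270, 299 and 338 CPM in naive lungs. Sema3g, a product of arterial endothelium, had 427, 453 and 386 CPM in injured lungs, against 366, 352 and 424 CPM in naive lungs. All 3 overlapped between the groups, with log2 fold changes of -0.00066 ± 0.13, 0.23 ± 0.12 and 0.15 ± 0.11 (SE) for Sema3c, Sema3f and Sema3g and adjusted p of at least 0.351 in edgeR. Sema3a, the classical repellent that binds neuropilin 1, was at -0.044 ± 0.083 (SE). The sum over the class was 395 ± 17.5 CPM per kb in injured and 389 ± 30.1 CPM per kb in naive lungs (SD, n = 3 each).

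None of the plexins or neuropilins, the receptors for semaphorins, was called or had an unadjusted p under 0.05, by edgeR, and DESeq2 and limma-voom called 0 as well. Nrp1, the co-receptor of class 3 semaphorins and of VEGF, had 616, 618 and 585 CPM in injured lungs, against 640, 643 and 565 CPM in naive lungs. Nrp2 had 122, 134 and 123 CPM in injured lungs, against 144, 136 and 96.3 CPM in naive lungs. The groups overlapped for both, and Nrp1 made up 84.6% ± 0.583 of the 2 neuropilins per kilobase in injured and 84.9% ± 1.84 in naive lungs (SD, n = 3 each). Among plexins, Plxnb2 and Plxna1 had the highest levels per kilobase. Plxnb2 had 369, 390 and 368 CPM in injured lungs, against 333, 368 and 333 CPM in naive lungs, and Plxna1 had 344, 309 and 236 CPM in injured lungs, against 325, 320 and 385 CPM in naive lungs. Their log2 fold changes were 0.12 ± 0.087 for Plxnb2 and -0.21 ± 0.14 for Plxna1 (SE), and 7 of the 9 plexins had a value below 0. Plxna1 ran from -0.33 without injured replicate 1 to -0.073 without injured replicate 3, and gene length offsets gave -0.089 for Plxna1 and 0.21 for Plxnb2. The least abundant, Plxna3 and Plxnb3, were at -0.29 ± 0.21 and 0.27 ± 0.48 (log2 fold change, SE).

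The plexins of the ligands named above are given beside them. Plxna4 and Plxna2, which bind class 6 semaphorins, had log2 fold changes of -0.28 ± 0.15 and -0.46 ± 0.29 (SE). Their sign was opposite to that of Sema6b and the same as that of Sema6a. Neither plexin was called, and the groups overlapped in both. In Plxna2 the naive lungs spread from 74.8 to 153 CPM, and the injured lungs from 72.2 to 106 CPM. Plxnc1, for Sema7a, was at -0.10 ± 0.10, Plxnd1, for Sema3e, at -0.13 ± 0.12, and Plxnb1, for Sema4d, at -0.16 ± 0.12 (SE). Plxnb1 was the 1 plexin whose groups did not overlap, with at most 143 CPM in injured and at least 144 CPM in naive lungs.

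Ephrins and Eph receptors signal in both directions when cells touch, and EphA receptors mostly take the lipid-anchored ephrin-A ligands and EphB receptors the transmembrane ephrin-B ligands. With no lung left out, none of the 17 tested ligands and receptors was called by edgeR, DESeq2 or limma-voom. In edgeR 1 was higher and 2 were lower at an unadjusted p under 0.05, beside 9.06% higher and 7.66% lower of all genes. Efnb2, the ephrin of arterial endothelium, had 459, 380 and 390 CPM in injured lungs, against 354, 354 and 333 CPM in naive lungs. Every injured lung was above every naive lung, at a log2 fold change of 0.24 ± 0.10 (SE; edgeR adjusted p = 0.26) and of 0.15 without injured replicate 1. Its receptor Ephb4, a marker of veins, had 256, 241 and 245 CPM in injured lungs, against 226, 239 and 321 CPM in naive lungs. The naive range contained the injured one. Efnb1, with 191, 200 and 210 CPM in injured lungs and 156, 162 and 266 CPM in naive lungs, did not separate the groups either.

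All 5 tested ephrin-A ligands had log2 fold changes above 0, from 0.13 for Efna2 to 0.60 for Efna4, and in none of them did the groups separate. Efna1, the most abundant, had 133, 106 and 90.0 CPM in injured lungs, against 86.7, 103 and 87.0 CPM in naive lungs (log2 fold change 0.25 ± 0.14, SE; edgeR adjusted p = 0.43). Efna5 was at 0.40 ± 0.21 (SE). Efna1 was at 0.089 without injured replicate 1, and Efna5 at 0.16 without injured replicate 2. Efna1 alone made up 91.5% ± 2.24 of the ephrin-A sum per kilobase in injured and 92.2% ± 0.424 in naive lungs (SD, n = 3 each). Epha2, the main receptor of ephrin-A1 in epithelium and endothelium, had 82.3, 81.9 and 75.7 CPM in injured lungs, against 87.5, 76.2 and 103 CPM in naive lungs. Its groups overlapped.

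Epha1 had 26.8, 24.0 and 25.5 CPM in injured lungs, against 50.2, 34.3 and 26.0 CPM in naive lungs. The injured and naive ranges overlapped, with naive replicate 1 far above the rest. The log2 fold change was -0.53 ± 0.22 (SE; edgeR adjusted p = 0.275), -0.25 without naive replicate 1 and -0.74, called, without naive replicate 3. Epha1 shares 236 exonic bases with Zyx on the opposite strand in GENCODE M21. The strand setting of the counting is not given, so how reads in these shared bases were assigned is not known. Ephb1, which shares 152 exonic bases with the opposite-strand Gm26846, had 1.49, 1.37 and 1.18 CPM in injured lungs, against 2.35, 2.12 and 2.43 CPM in naive lungs. The groups were separate at a low level, 89 counts in injured against 193 in naive lungs, with a log2 fold change of -0.77 ± 0.27 (SE; edgeR adjusted p = 0.176). Ephb3, the second most abundant EphB receptor, was at 0.13 ± 0.13 (SE). Of the other tested receptors, Epha4 was at 0.36 ± 0.22, and Epha3, Epha7, Ephb6 and Ephb2 were at -0.094 ± 0.16, -0.16 ± 0.15, -0.28 ± 0.15 and -0.39 ± 0.41 (log2 fold change, SE), all with overlapping groups.

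The Slit ligands are large secreted proteins that repel cells carrying Robo receptors. None of the 5 tested Slit and Robo genes was called by edgeR with all 6 lungs. At an unadjusted p under 0.05 in edgeR, 3 were lower, beside 7.66% of all genes. DESeq2 called 1, Robo2, beside 6.47% of all genes. Robo2 had 41.4, 46.5 and 40.4 CPM in injured lungs, against 47.9, 69.4 and 81.4 CPM in naive lungs. The naive lungs spread widely, with naive replicate 1 nearest to the injured lungs, and the groups did not overlap. Its log2 fold change was -0.63 ± 0.18 (SE; edgeR adjusted p = 0.119), and -0.83, called, without naive replicate 1. Without naive replicate 3 Robo2 was at -0.46 and with gene length offsets at -0.52, and it was called in neither fit. Robo1 had 31.4, 33.9 and 26.7 CPM in injured lungs, against 39.5, 37.7 and 34.3 CPM in naive lungs. Slit2 had 87.9, 78.6 and 76.1 CPM in injured lungs, against 94.0, 98.7 and 92.6 CPM in naive lungs. Both showed separate groups with small differences, -0.27 ± 0.11 for Robo1 and -0.23 ± 0.088 for Slit2 (SE), and adjusted p of 0.261 and 0.211 in edgeR. With gene length offsets the values were -0.17 for Robo1 and -0.14 for Slit2. Robo4, the Robo receptor of endothelium, had 79.6, 83.3 and 58.4 CPM in injured lungs, against 70.2, 89.1 and 102 CPM in naive lungs. Slit3 had 203, 197 and 169 CPM in injured lungs, against 156, 197 and 193 CPM in naive lungs. In these last 2 genes the groups overlapped.

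Netrins are laminin-related proteins, and Unc5 receptors transmit their repulsion and can trigger cell death when no netrin is bound. None of the 4 netrins or 4 Unc5 receptors was called by edgeR or limma-voom with all 6 lungs and the low-count filter. Unc5c and Unc5d were lower at an unadjusted p under 0.05, beside 7.66% of all genes. DESeq2 called both, beside 6.47% of all genes, and so did edgeR without the low-count filter, at an adjusted p of 0.0254 for Unc5c and 0.017 for Unc5d. Unc5d had 0.397, 0.798 and 0.886 CPM in injured lungs, against 2.35, 3.17 and 1.52 CPM in naive lungs. It had the largest difference among the tested guidance genes, at -1.72 ± 0.41 (log2, SE; edgeR adjusted p = 0.0575), and the smallest level of the receptors in its class, with 47 counts in injured and 182 in naive lungs. Without naive replicate 3 it was called, at -1.97, and without naive replicate 2 or injured replicate 1 it was at -1.46 and not called. Unc5c had 14.8, 14.0 and 16.2 CPM in injured lungs, against 27.2, 18.5 and 21.6 CPM in naive lungs, again with no overlap. Its log2 fold change was -0.58 ± 0.15 (SE; edgeR adjusted p = 0.0758). It was at -0.43 without naive replicate 1 and at -0.45 with gene length offsets, called in neither fit. Unc5c shares 118 exonic bases with the antisense gene Gm15688, which had 15 counts in all.

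The more abundant Unc5b, which endothelial cells carry, had 46.8, 29.9 and 48.1 CPM in injured lungs, against 26.6, 37.2 and 50.9 CPM in naive lungs. Unc5a was at 0.12 ± 0.18 (log2 fold change, SE). Ntn4, the netrin of basement membranes, had 159, 174 and 143 CPM in injured lungs, against 225, 179 and 168 CPM in naive lungs (log2 fold change -0.26 ± 0.12, SE; edgeR adjusted p = 0.324), and was at -0.14 without naive replicate 1. Ntn1 had 203, 187 and 111 CPM in injured lungs, against 154, 173 and 155 CPM in naive lungs, so injured replicate 3 lay below the naive lungs and the other two lay above them. The groups overlapped in these netrins and in Unc5b, and also in Ntn3 at 0.015 ± 0.16 and Ntn5 at -0.14 ± 0.42 (log2 fold change, SE). Of the 2 genes matched by name only, Unc50 was at -0.061 ± 0.092 and Unc5cl, a death-domain protein, at -0.14 ± 0.57 (SE).

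The remaining 7 genes had too few counts to be tested. Sema5b had 17 counts over the injured and 27 over the naive lungs, and Efnb3 had 17 and 28 in injured and naive lungs. Robo3 had 10 counts in injured and 12 in naive lungs, Slit1 had 5 in injured and 9 in naive lungs, Epha5 had 7 in injured and 2 in naive lungs, and Epha8 had 1 in injured and 7 in naive lungs. Epha6 had 3 counts in injured and 0 in naive lungs. No change in these genes was detectable at this depth.

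Levels between genes were compared as CPM per kilobase of the gene length in the deposited table. Sema3c was the most abundant guidance gene at 141 ± 22.5 CPM per kb in injured and 141 ± 9.83 in naive lungs (SD, n = 3 each), above the next gene, Nrp1, in every lung of either group. Nrp1 followed at 103 ± 3.11 in injured and 104 ± 7.52 in naive lungs, Sema3g at 93.0 ± 7.51 in injured and 83.9 ± 8.35 in naive lungs, and Efnb2 at 94.7 ± 9.96 in injured and 80.3 ± 2.76 CPM per kb in naive lungs (SD, n = 3 each). Sema3f, next below Nrp1 in the order, ran from 92.1 to 114 in injured and from 79.5 to 99.6 CPM per kb in naive lungs. Among Nrp1, Sema3f, Sema3g and Efnb2, the ranges of neighbours in that order overlapped in both groups. Sema7a came sixth, at 77.9 ± 11.8 in injured and 50.1 ± 9.95 CPM per kb in naive lungs (SD, n = 3 each). Sema6b ranked 38 of 69, at 7.38 ± 0.856 in injured and 4.01 ± 0.343 CPM per kb in naive lungs (SD, n = 3 each). Averaged over the 6 lungs, 29 genes reached 10 CPM per kb and 52 reached 1.

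**Figure D3:**
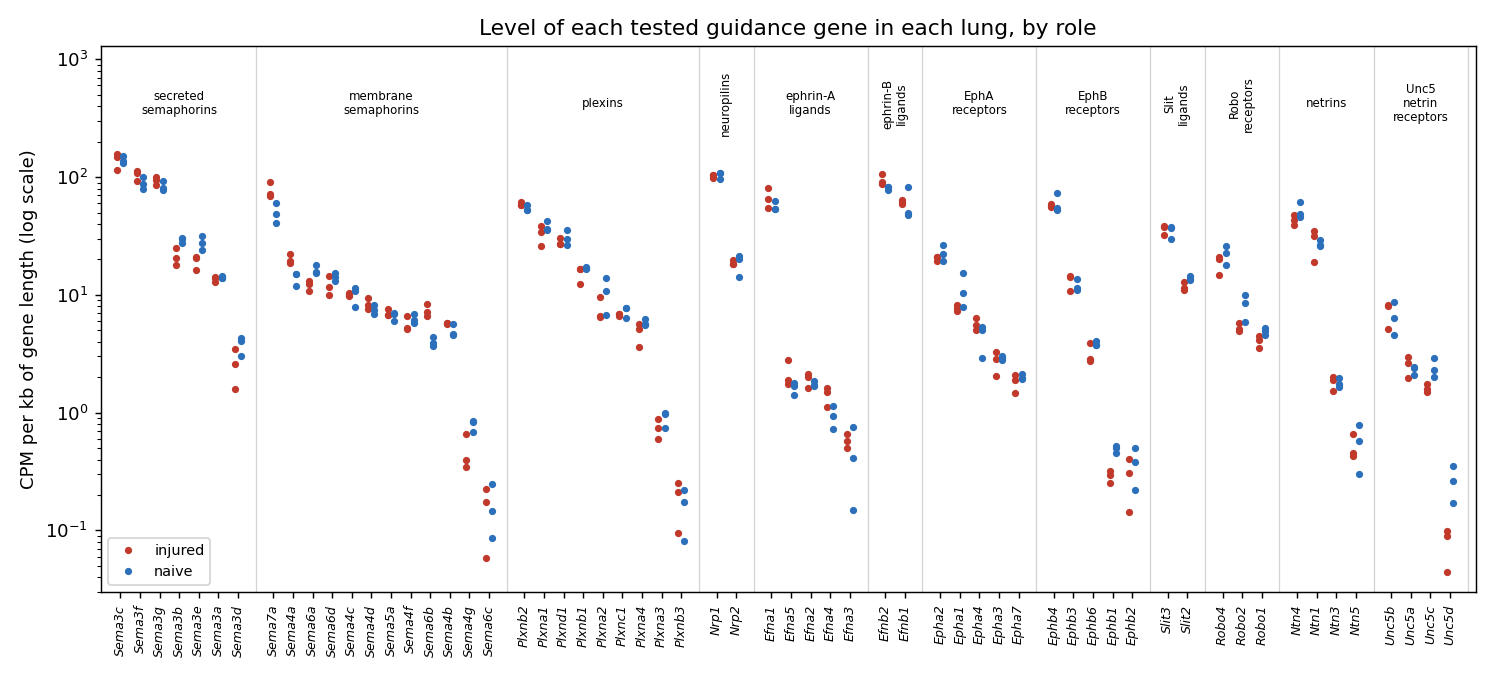
CPM per kilobase of gene length (log-scaled y axis) in each injured (red, left of each pair) and naive (blue, right) lung for 60 tested ligands and receptors, grouped by role and ordered by level. Sema3c stands highest at 141 CPM per kb in both groups, and Nrp1 lies above Nrp2 and Efna1 above the other ephrin-A ligands in every lung. Red and blue points are apart for Unc5d, Sema6b and Sema7a, among other genes.

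Summed over all ligands, the level was 914 ± 32.8 CPM per kb in injured and 856 ± 44.0 in naive lungs, and over all receptors 428 ± 22.5 in injured and 455 ± 16.5 in naive lungs (SD, n = 3 each). Of the tested ligands 19 of 32 had a log2 fold change above 0, and of the tested receptors 7 of 28 had one above 0, beside 7711 of 15486 genes. The medians were 0.049 for ligands and -0.16 for receptors. With gene length offsets the receptor Plxna1 moved from -0.21 to -0.089, Robo1 from -0.27 to -0.17 and Nrp1 from -0.022 to 0.05. Robo4 moved from -0.24 to -0.23 and Epha1 from -0.53 to -0.54. Among ligands Slit2 moved from -0.23 to -0.14 and Efna1 from 0.25 to 0.18. The part of gene length in these counts and medians was not tested. Whether ligands and receptors differ was not tested.

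Other genes of these pathways, co-receptors, adaptors and cytoskeletal effectors, were read from a list of 66 symbols, of which 63 were in the table. The symbol Mical3 stands on 2 identifiers, and 61 identifiers were tested. By edgeR 1 was called higher and 0 lower, beside 2.16% higher and 0.956% lower of all genes. At an unadjusted p under 0.05 there were 5 of 61 higher and 4 of 61 lower, near the 9.06% and 7.66% of all genes. The median log2 fold change was -0.043. The called gene was Chl1, an adhesion molecule that can serve as a co-receptor of neuropilin 1 for Sema3a, with 10.6, 8.68 and 37.9 CPM in injured lungs, against 0.235, 0.529 and 0.644 CPM in naive lungs. Its log2 fold change was 5.33 ± 0.87 (SE; edgeR adjusted p = 0.0464), and 4.35 without injured replicate 3. It was called in 7 of 14 alternative fits, with adjusted p up to 0.192, and was not called without naive replicate 1, 2 or 3 or without injured replicate 1. For the whole list limma-voom called 0 genes and DESeq2 called 3, beside 6.47% of all genes. Fes, a tyrosine kinase that acts downstream of plexin A1, had 50.5, 42.1 and 38.3 CPM in injured lungs, against 28.5, 29.2 and 33.3 CPM in naive lungs, and was not called (log2 fold change 0.52 ± 0.12, SE; edgeR adjusted p = 0.0541). Ablim1, an actin-binding protein whose worm relative acts in netrin guidance, was at -0.38 ± 0.10 (SE; edgeR adjusted p = 0.0679). The netrin receptor gene Neo1 was at -0.070 ± 0.12 and Kdr, the VEGF receptor that pairs with neuropilin 1, at -0.27 ± 0.15 (SE).

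The authors' deposited table listed 9 guidance genes at an adjusted p under 0.05, 3 higher and 6 lower. These are the 9 genes that DESeq2 called here from the counts: Sema6b, Sema4a and Sema7a higher, and Sema6a, Sema3b, Sema3e, Robo2, Unc5c and Unc5d lower. Over all genes DESeq2 called 6.47%, and among the 62 guidance genes 14.5%. When low counts were kept in, edgeR called 7 of the 69 guidance genes and 3.14% of all genes, and with the replicate number as a block it called 6 of 62 and 4.01% of all genes. The authors' deposited table gives Sema6b a log2 fold change of 0.783, Sema7a 0.558 and Unc5d -0.814, each nearer to 0 than the edgeR value. They are also nearer to 0 than the values of the DESeq2 fit made here from the counts, 0.87, 0.63 and -1.74. The cause of this difference was not tested. Counts of calls thus depended on the test, while Sema6b was called in each of the 15 fits.

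**Figure D4:**
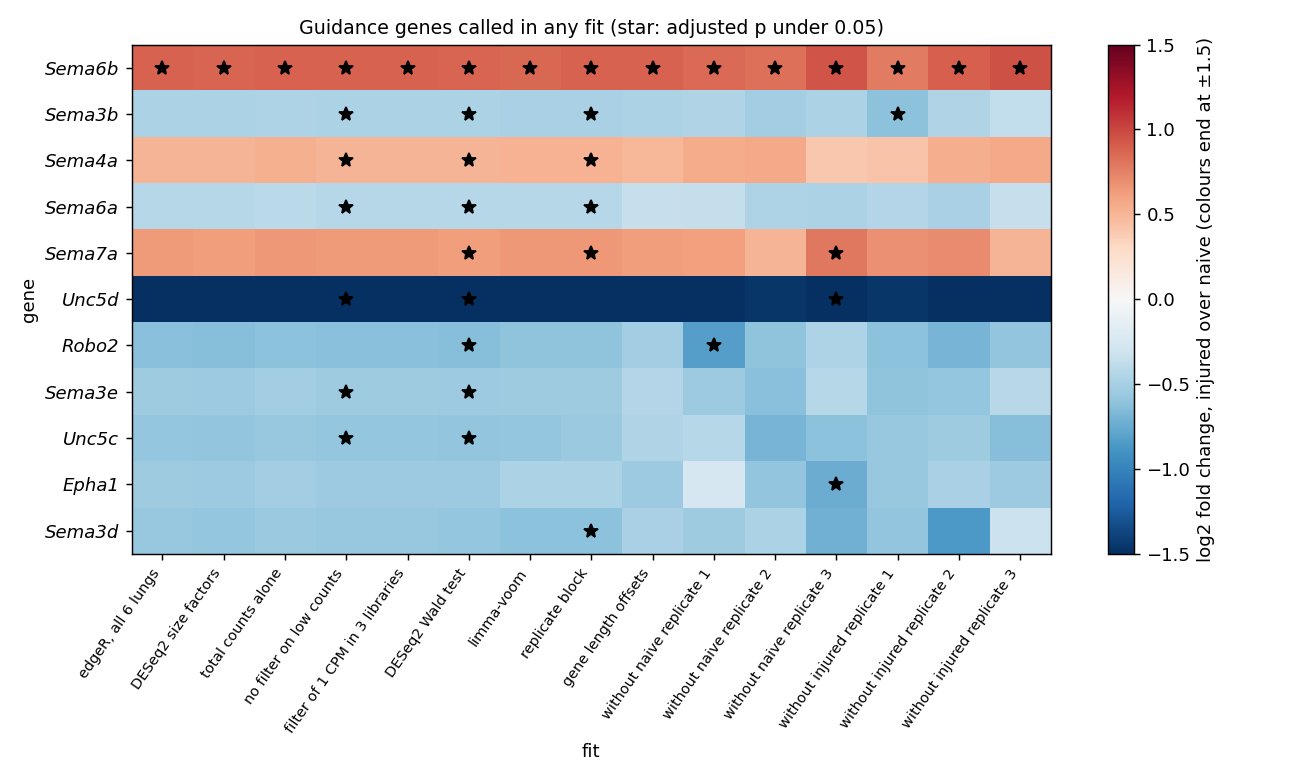
Log2 fold change of injured over naive lungs (colour, ending at ±1.5) for the 11 guidance genes called in any of 15 fits (rows), by fit (columns), with a star for an adjusted p under 0.05. Sema6b has a star in all 15 fits, Sema3b in 4, and Sema4a, Sema6a, Sema7a and Unc5d in 3 each.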

How the data were processed

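RNA of 6 left lungs was sequenced as paired reads. The build was mm10, and tools were STAR, STAR-Fusion, HTSeq, edgeR and DESeq2 without versions, per the submitters' processing notes, and the strand setting of the counting is not given in the sources used here. The deposited table holds the authors' raw counts per gene, their normalized counts (a signal, each sample's counts divided by 1 factor, within a tolerance of 1e-06) and FPKM, and per the file headers also the authors' log2 fold changes, p-values and adjusted p-values. Only the counts were tested.

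Counts were filtered with filterByExpr, scaled by TMM and fitted for 2 groups with the robust quasi-likelihood F test of edgeR 4.0.16 in R 4.3.3, with Benjamini-Hochberg adjustment over 15486 genes. A gene was called at an adjusted p under 0.05, and the SE is the log2 fold change divided by the square root of F. Alternatives were DESeq2 1.42.0, limma-voom 3.58.1, other scalings and filters, gene length offsets, a replicate block and leaving out each library. The fit was tested on simulated data.

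The members and lists were chosen with earlier results of these data known. Named are called genes, genes with an unadjusted p under 0.05, the 2 most abundant per class, untested genes with their counts and called genes of the partner list. Other members are named to account for all 69, and Sema3d, Fes, Ablim1, Neo1 and Kdr were named after their values were seen. Correlations of the deviations of same-numbered lungs were 0.0946, -0.0837 and 0.181 for numbers 1 to 3, and since not every pair was above 0.1 the numbers were not taken to pair the lungs. Exon overlaps were read from GENCODE M21 for 68 of the 69 genes, and RefSeq promoters matched 60.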

Additional observations from a re-analysis of the deposited data

How the results depend on the processing

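Across the 14 alternative fits Sema6b kept its direction and its call. The guidance genes called higher numbered 1 by edgeR on all 6 lungs, 2 with no filter on low counts, 3 with the DESeq2 Wald test and 3 with the replicate block, and 1 to 2 when each replicate was left out. Those called lower numbered 0, 5, 6 and 3 in the same fits, and 0 to 2 when each replicate was left out. The replicate block called 6 of the 62, beside 4.01% of all genes, although the numbers were not taken to pair the lungs. Called partner genes numbered 2 with total counts alone, 2 with no filter, 3 with the DESeq2 Wald test, 2 with the replicate block, 0 with gene length offsets and 0 with limma-voom, beside 1 by edgeR, and 0 to 2 when each replicate was left out. The cause of these differences was not tested.

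Values near 0 changed sign. Nrp1 was at 0.05 with gene length offsets, Nrp2 at -0.0014 with DESeq2 size factors and -0.0013 with the DESeq2 Wald test, and Sema3c at 0.015 with total counts alone and 0.063 with gene length offsets. When each replicate was left out, log2 fold changes ran from -0.0049 to 0.28 for Unc5a, -0.19 to 0.082 for Ephb4, -0.045 to 0.14 for Slit3, -0.091 to 0.38 for Unc5b, -0.11 to 0.28 for Ntn1, -0.088 to 0.0065 for Nrp1, -0.1 to 0.33 for Efnb1, -0.16 to 0.11 for Nrp2 and -0.1 to 0.12 for Sema3c. None of these was called in any fit. Other uncalled values moved by over 1.5 times when 1 lung was left out. Sema3f was at 0.15 without naive replicate 1, Robo4 ran from -0.38 to -0.1, Epha2 from -0.25 to -0.041 and Ephb3 from 0.061 to 0.25. Depth limits the 7 untested genes.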

Other observations

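Neighbouring guidance genes did not share a direction throughout. Sema3b and Sema3f lie on chromosome 9, where Sema3b was at -0.48 ± 0.12 and Sema3f at 0.23 ± 0.12 on the log2 scale (SE). On chromosome 16, Robo1 and Robo2 had lower values in injured lungs, at -0.27 ± 0.11 and -0.63 ± 0.18 (SE). The 3 ephrin-A genes of chromosome 3, Efna1, Efna3 and Efna4, were at 0.25 ± 0.14, 0.46 ± 0.51 and 0.60 ± 0.30 (SE). Efna3, with 92 counts in injured and 75 in naive lungs, shares 344 exonic bases with the opposite-strand gene Gm15998. Gm15998 had 187 counts in all, beside 167 for Efna3. Efna4 shares 168 exonic bases with the opposite-strand gene 4731419I09Rik, which had 12 counts in all, beside 279 for Efna4. None of the 7 guidance genes named here was called by edgeR with all 6 lungs, the low-count filter and no replicate block. DESeq2 called Sema3b and Robo2. Sema3b was also called by edgeR without that filter, with the replicate block and without injured replicate 1, and Robo2 without naive replicate 1.

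Within a class, the share held by its most abundant gene was 38.0% ± 3.09 in injured and 32.9% ± 2.99 in naive lungs for Plxnb2 among plexins, and 75.4% ± 1.14 in injured and 71.3% ± 2.47 in naive lungs for Slit3 among Slits (SD, n = 3 each, CPM per kb). For Robo4 among Robo receptors it was 66.4% ± 2.68 in injured and 62.6% ± 1.26 in naive lungs (SD, n = 3 each). These shares were not tested.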
